A study of Mus musculus with 36 samples.

Results

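Naive CD4 T cells of wild-type mice that had been cultured in Treg conditions were compared with cells of the same origin cultured in Th0 conditions, the activation without a named polarizing condition. The comparison holds 6 of the 36 samples of the series, chosen by their titles: 3 labelled WT Treg and 3 labelled WT Th0. Genes were taken from the 23521 of 41345 rows of the expression table that carry exactly 1 gene symbol, which gave 22180 genes, of which 13082 passed a filter on low values and were tested. The study measured gene expression on Affymetrix arrays in sorted naive CD4 T cells from TRIM28-knockout mice and their wild-type littermates, either naive or after 72 h with plate-bound anti-CD3 and soluble anti-CD28, the antibodies that engage the T cell receptor and its costimulatory receptor. Stimulated cells of both genotypes were cultured in Treg, Th0, Th1, Th2 or Th17 conditions, with 3 samples of each genotype in each of the 6 states. All groups used here therefore started as naive CD4 T cells, and all except the naive ones received both antibodies for 72 h. The labels name no cytokines, doses or mouse ages, do not say in which cells the knockout removes TRIM28, and do not tell if the 3 samples of each group are separate animals or cultures. P-values thus measure the spread between samples, which may be technical, and the number of arrays limits their precision. For each gene that spread, and the SE, were pooled within groups over all 36 samples, knockout ones included. They are therefore not the spread of the 6 compared samples alone.

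Regulatory T cells restrain immune responses, and the transcription factor Foxp3 is the defining regulator of that lineage. Naive CD4 T cells can be induced to express Foxp3 in culture when they are activated with TGF-β and IL-2. TGF-β binds the receptor pair Tgfbr2 and Tgfbr1, which phosphorylates Smad2 and Smad3, and these move to the nucleus with Smad4. Among the targets are genes that limit the pathway itself, such as Smad7, Skil and Pmepa1, and Itgae, which encodes the αE integrin chain CD103.

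Levels are given as the deposited log2 RMA values, where a difference of 1 is a doubling, and they ran from 2.05 to 13.5 over the table. The samples had medians of 5.18 to 5.35 and correlated with the others of their group at 0.976 to 0.994 on average. Cd3e, a chain of the T cell receptor complex, and Cd4 were high in all 6 samples, as the label of CD4 T cells calls for. Cd4 was 10.45, 10.82 and 10.81 in WT Treg samples, against 11.24, 11.30 and 11.35 in WT Th0 samples, a difference of -0.61 ± 0.09 (SE; limma, Benjamini-Hochberg adjusted p = 3.2e-06). Of the markers with a row, 6 of 10 for B cells, 10 of 12 for myeloid cells, 5 of 7 for dendritic cells and 3 of 6 for NK and γδ T cells lay below the table median of 5.26 in all 6 samples. Some of the others were high: the B cell marker Ighm was 11.82 to 12.11 and the dendritic cell marker Cd209a 8.46 to 8.80 over the 6 samples. Neither was called. Of the myeloid markers, Itgam was called higher (0.77, adjusted p = 0.00014) and Adgre1 lower (-0.66, adjusted p = 0.017) in WT Treg samples. Both CD8 T cell markers lay above the table median in at least 1 of the 6 samples. Their summed level was 6.73 to 7.59 in WT Treg samples and 7.81 to 8.09 in WT Th0 samples. Cd8b1 was 7.14, 6.18 and 6.78 in WT Treg samples, against 7.90, 7.72 and 7.62 in WT Th0 samples (difference -1.05, adjusted p = 0.000147), while Cd8a was not called (adjusted p = 0.21). The part of these markers in the results below was not tested. In bulk samples such as these, fewer cells of a type and less RNA per cell cannot be told apart.

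Loci of the miR-181 family, small RNAs that pair with messenger RNAs through bases 2 to 8 (the seed), were higher in WT Treg samples to unequal degrees, by 4.81 on the log2 scale at Mir181b-2 and by 0.34 at Mir181d. Their mature 5p strands are printed here because all 4 share 1 seed, shown in capitals. The sequences and positions are those of RefSeq (mouse build GRCm38.p6), 5′ to 3′.
miR-181a-5p: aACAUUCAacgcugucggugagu
miR-181b-5p: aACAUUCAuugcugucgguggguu
miR-181c-5p: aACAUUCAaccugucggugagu
miR-181d-5p: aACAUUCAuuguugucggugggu
The miR-181a strand lies at chr2:38852741-38852763 on the plus strand in Mir181a-2 (Mir181a-1, which carries the same strand, was not among the genes tested), and miR-181b at chr2:38853845-38853868 in Mir181b-2, and at chr1:137966650-137966673 in Mir181b-1, both also on the plus strand. The miR-181c and miR-181d strands lie close together on the minus strand, at chr8:84178924-84178945 and chr8:84178759-84178781.

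Over all genes tested, 5442 of 13082 (41.6%) passed an adjusted p of 0.05 between WT Treg and WT Th0 samples. Of these, 2518 (19.2% of genes tested) were higher and 2924 (22.4%) lower in WT Treg samples, and the median log2 change over all genes was -0.0015. At least 2-fold changes were fewer, with 396 genes (3.03%) higher and 789 (6.03%) lower. Counts of named groups are read against these shares throughout. The lists were chosen with earlier results of these data known, so their counts and medians are descriptions and not independent tests. In a ranking that leaves out miRNA and other small RNA loci, uncharacterized symbols, receptor and immunoglobulin segments and sex-linked genes, the genes whose groups did not overlap and whose changes were largest upward were Fermt1, Itgae, Abcc8, Glp1r, Ncmap, Adamtsl2, Apol9b, Rasgrp3, Maf, Cd40, Agap1, Cd101, Rgs16, Ldlrad4 and Ctsw. Those largest downward were Gzmb, Usp18, Gbp11, Oas2, Oasl2, Iigp1, Lilrb4a, Ifit1, Oas3, Il12rb2, Rtp4, Gzmc, H2-Q5, Ms4a4c and Ifit1bl1. Several of these belong to families of close relatives (the granzymes, Ifit, Oas, Gbp, Apol9 and H2-Q genes), whose probes may share signal, so their values are uncertain as to the member. The same holds for Ly6c2, named below.

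**Figure D1:**
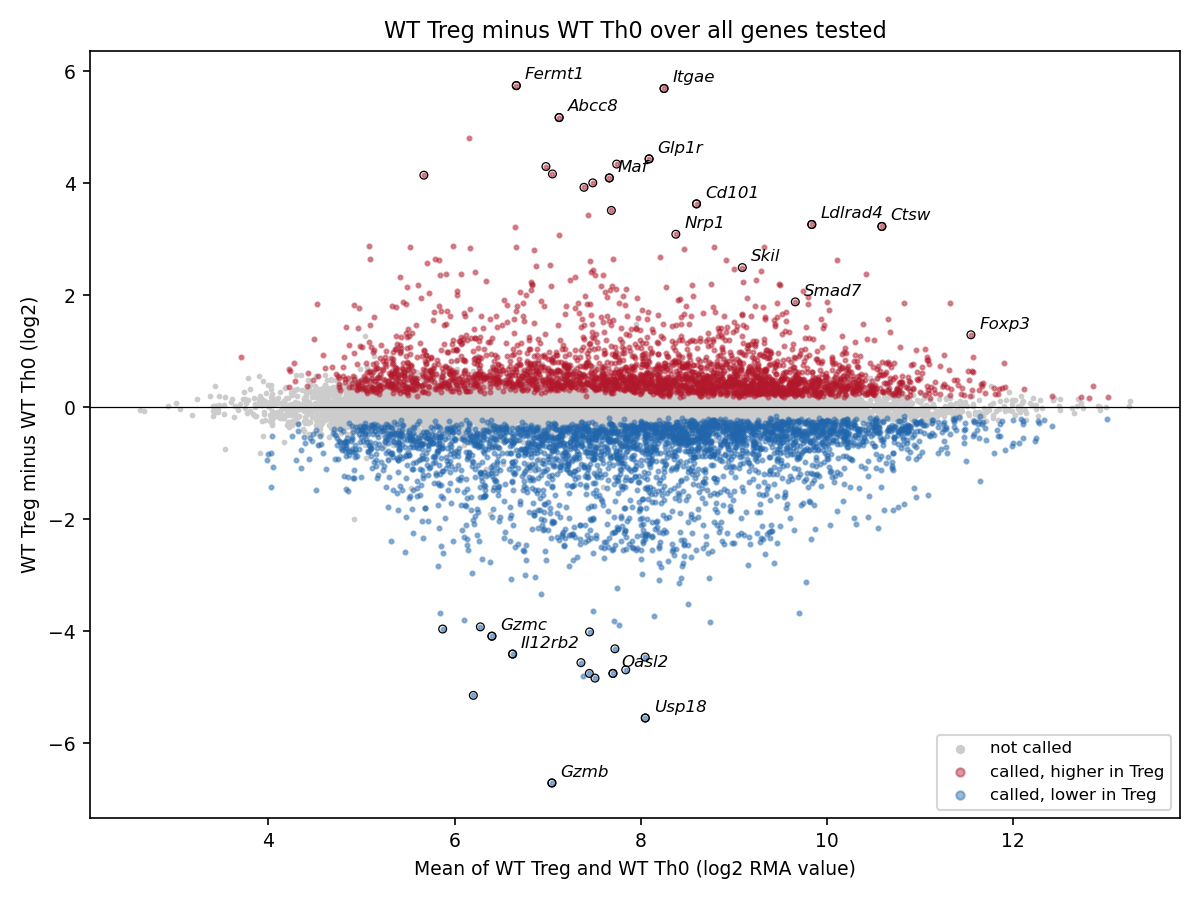
Mean log2 level (x axis) against the log2 difference of WT Treg minus WT Th0 samples (y axis) for the 13082 genes tested, with genes called at an adjusted p of 0.05 coloured and the 15 highest and 15 lowest genes circled. Itgae and Fermt1 stand more than 5 log2 units above 0, and Gzmb more than 6 below it.

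TGF-β targets and feedback genes were mostly higher in WT Treg samples: 14 of the 23 tested members (25 written) were higher and 1 was lower, with a median log2 change of 0.94 against -0.0015 over all genes. Its members Itgae, Rgs16, Ldlrad4 and Ctsw are also among the highest genes named above. Itgae was 10.98, 11.08 and 11.23 in WT Treg samples, against 5.14, 5.64 and 5.44 in WT Th0 samples, a 51.6-fold difference (log2 5.69 ± 0.20 SE, adjusted p = 7.1e-19). Ldlrad4, which encodes an inhibitor of SMAD phosphorylation, was 11.41, 11.37 and 11.64 in WT Treg samples and 8.35, 8.27 and 8.01 in WT Th0 samples (9.59-fold, adjusted p = 2.2e-13). In neither gene did the groups come within 2 log2 units of each other. The SMAD co-repressor Skil was 10.33, 10.26 and 10.43 in WT Treg samples, against 7.82, 7.96 and 7.76 in WT Th0 samples (5.63-fold, adjusted p = 1.2e-12). The inhibitory SMAD Smad7 was 10.47, 10.65 and 10.69 in WT Treg samples and 8.73, 8.80 and 8.64 in WT Th0 samples (3.68-fold, adjusted p = 8.2e-14). Each of the 3 WT Treg samples exceeded every WT Th0 sample for both inhibitors. Pmepa1, which sequesters receptor-regulated SMADs, rose less, by 1.43 ± 0.25 on the log2 scale (adjusted p = 3.3e-05). Rgs16, a regulator of G-protein signalling, varied more between samples: it was 8.46, 10.01 and 9.86 in WT Treg samples and 5.32, 6.84 and 5.63 in WT Th0 samples (log2 change 3.51 ± 0.52, adjusted p = 3.9e-06). Ctsw, which encodes the protease cathepsin W, was 12.25, 12.19 and 12.19 in WT Treg samples and 8.96, 9.29 and 8.69 in WT Th0 samples. Id2, an inhibitor of basic helix-loop-helix factors, was the 1 member that fell, with 9.52, 9.35 and 9.35 in WT Treg samples, against 10.66, 10.97 and 10.59 in WT Th0 samples (adjusted p = 5.5e-10). The count of lower members was 4 with array weights and 2 with repeated quantile normalization, with median centering, with cyclic loess or without WT Treg sample 1.

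Of the 22 ligands, receptors, activators and SMADs tested, 9 were higher and 2 lower, with a median change of 0.21. The lower count was 1 without WT Th0 sample 2 or with only the compared groups fitted. Tgfbr1, the signalling type I receptor, was 9.73, 9.90 and 9.88 in WT Treg samples and 8.26, 8.53 and 8.31 in WT Th0 samples (log2 change 1.47 ± 0.16, adjusted p = 3.3e-08). Tgfbr2, the ligand-binding receptor, was 9.98, 10.01 and 9.88 in WT Treg samples, against 9.03, 8.90 and 9.05 in WT Th0 samples (0.96 ± 0.15, adjusted p = 5e-06). The groups did not overlap for either receptor. The BMP receptor Bmpr2 (1.97 ± 0.16, adjusted p = 1.8e-10), the activin receptor Acvr2a (1.85 ± 0.17, adjusted p = 9.3e-10) and the proprotein convertase Furin, which cleaves the TGF-β precursor (1.86 ± 0.13, adjusted p = 3.6e-12), rose as well. The ligand Tgfb1 was 11.04, 10.99 and 11.08 in WT Treg samples and 11.21, 11.32 and 11.24 in WT Th0 samples, a small fall of 0.22 on the log2 scale (adjusted p = 0.0095). That call was lost without WT Th0 sample 2 and with only the compared groups fitted. Tgfb3 (adjusted p = 0.72) and the signal transducer Smad3 (log2 change 0.01, adjusted p = 0.95) did not pass the test.

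Foxp3 was already above the table median in WT Th0 samples. It was 12, 12.24 and 12.35 in WT Treg samples, against 10.70, 11.23 and 10.78 in WT Th0 samples, a 2.45-fold difference (log2 1.29 ± 0.35, adjusted p = 0.0038) without overlap. Its means in the other wild-type states were lower than in WT Th0 samples, at 7.10 ± 1.0 (SD, n = 3) in Th17, 8.30 ± 0.38 in Th1, 5.98 ± 0.20 in Th2 and 7.33 ± 0.50 in naive cells. Across the Treg identity list, 12 of 26 tested genes (29 written) were higher and 5 lower, with a median of 0.35. The count of lower members was 2 without WT Treg sample 3, without WT Th0 sample 2 or without WT Th0 sample 3.

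Among the members that rose, Nrp1, a semaphorin co-receptor used to mark Treg cells, was 9.88, 9.82 and 10.07 in WT Treg samples, against 5.92, 7.67 and 6.91 in WT Th0 samples (8.5-fold, adjusted p = 2.3e-09). Nt5e, the ecto-enzyme CD73 that makes adenosine, was 11.50, 11.72 and 11.63 in WT Treg samples and 9.23, 9.35 and 9.12 in WT Th0 samples (5.23-fold, adjusted p = 2.6e-10). WT Treg samples lay close together for both genes, while WT Th0 sample 1 was the lowest of its group for Nrp1. Entpd1, the ecto-enzyme CD39 that acts upstream of CD73, rose by 1.41 ± 0.25 on the log2 scale (adjusted p = 3.2e-05). The Ikaros-family factors Ikzf4 (Eos; 1.88 ± 0.20, adjusted p = 2e-08) and Ikzf2 (Helios; 1.66 ± 0.29, adjusted p = 4.3e-05) rose too. Ikzf2 was 9.62, 9.86 and 10.29 in WT Treg samples, against 7.78, 8.83 and 8.18 in WT Th0 samples. The inhibitory receptor Ctla4 was 9.59, 9.66 and 9.60 in WT Treg samples and 8.63, 9.21 and 9.04 in WT Th0 samples (0.66 ± 0.23, adjusted p = 0.024), a call lost without WT Treg sample 2, WT Treg sample 3 or WT Th0 sample 1.

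Other genes used to recognise Treg cells did not separate the groups, or ran the other way. Il2ra, the high-affinity IL-2 receptor chain CD25, was 12.24, 12.28 and 12.31 in WT Treg samples and 12.16, 12.33 and 12.21 in WT Th0 samples (log2 change 0.04, adjusted p = 0.91). Lrrc32 (GARP), which anchors latent TGF-β on the cell surface, was not called either (-0.15, adjusted p = 0.83). Both were far higher in these stimulated groups than in naive WT cells, where their means were 7.30 for Il2ra and 5.85 for Lrrc32. Gpr83 did not pass the test (adjusted p = 0.82). Izumo1r, the folate receptor 4, fell, with 7.11, 7.48 and 7.43 in WT Treg samples, against 8.19, 8.16 and 8.03 in WT Th0 samples (-0.79 ± 0.20, adjusted p = 0.0017). Ebi3 fell more, by 1.15 on the log2 scale (adjusted p = 9.9e-06). Swap70 (-0.50), Tnfrsf4 (-0.48) and Tnfrsf18 (-0.40) were called lower as well.

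**Figure D2:**
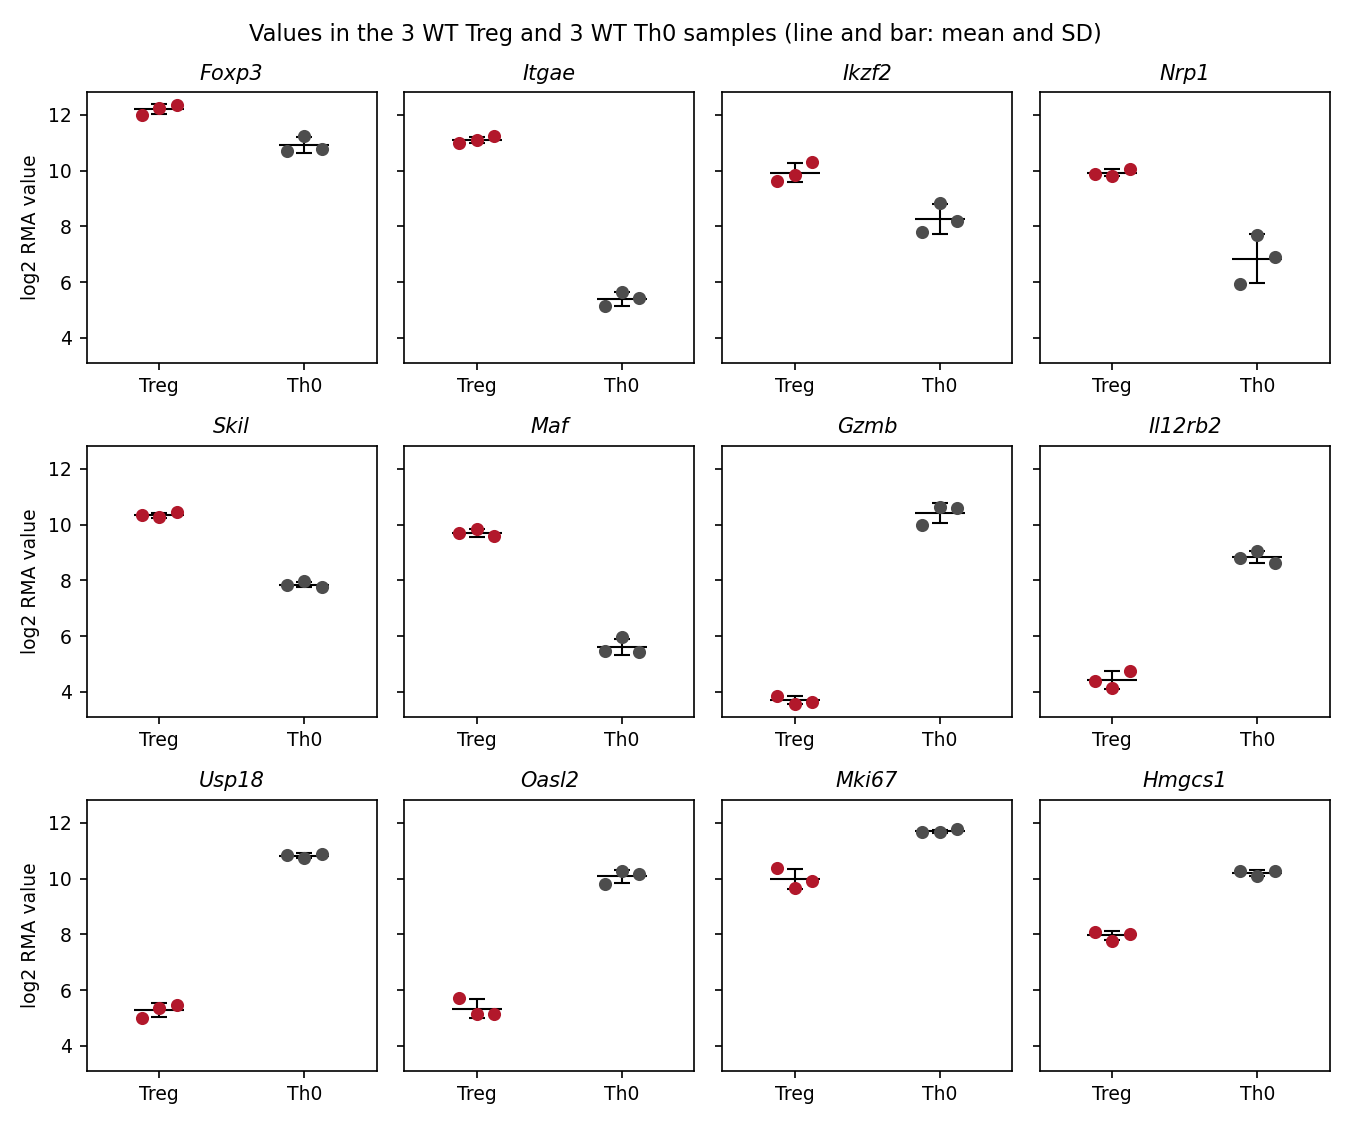
Log2 level (y axis) of 12 genes in each of the 3 WT Treg and 3 WT Th0 samples (points), with the mean and SD of each group. WT Treg points lie above WT Th0 points for Foxp3, Itgae, Ikzf2, Nrp1, Skil and Maf, and below them for Gzmb, Il12rb2, Usp18, Oasl2, Mki67 and Hmgcs1.

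Several of the highest genes belonged to no Treg or TGF-β list. Fermt1, which encodes kindlin-1, an activator of integrins, was 9.33, 9.64 and 9.63 in WT Treg samples and 3.68, 3.98 and 3.72 in WT Th0 samples (53.5-fold, adjusted p = 2.3e-14). Abcc8, the sulfonylurea receptor subunit of ATP-sensitive potassium channels, was 9.75, 9.87 and 9.50 in WT Treg samples, against 4.62, 4.55 and 4.46 in WT Th0 samples (36-fold, adjusted p = 4.9e-22). Glp1r, the receptor of the incretin hormone GLP-1, was 10.72, 10.09 and 10.12 in WT Treg samples and 5.63, 5.97 and 6.03 in WT Th0 samples (21.6-fold, adjusted p = 6.8e-19). Fermt1 and Abcc8 lay below the table median in every WT Th0 sample and well above it in every WT Treg sample, and such genes passed the filter on low values through the group in which they were high. The transcription factor Maf was 9.70, 9.86 and 9.57 in WT Treg samples, against 5.45, 5.96 and 5.44 in WT Th0 samples (17.1-fold, adjusted p = 8e-18). The immunoglobulin-family receptor Cd101 was 10.45, 10.33 and 10.47 in WT Treg samples and 6.68, 6.85 and 6.83 in WT Th0 samples (12.4-fold, adjusted p = 1.1e-21). Ncmap, Adamtsl2, Apol9b, Rasgrp3 (a Ras and Rap exchange factor), Cd40 (a costimulatory receptor best known on antigen-presenting cells) and Agap1 rose by 3.93 to 4.34 on the log2 scale. The ranking that named these genes required groups without overlap, so that trait is not a result about them.

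Adhesion and homing receptors moved in both directions. Of 15 integrin subunits tested, 6 were higher and 5 lower. Itgb8, the β chain of a TGF-β-activating integrin, had a log2 change of 1.04 (adjusted p = 0.022) with overlapping groups. The call was lost without WT Treg sample 2, WT Treg sample 3, WT Th0 sample 1 or WT Th0 sample 3, and with only the compared groups fitted. The change was 0.46 without WT Treg sample 3 and 1.72 without WT Treg sample 1. Besides Itgae, which rose, Itga2 fell, with 5.31, 5.47 and 5.44 in WT Treg samples, against 8.21, 7.85 and 8.36 in WT Th0 samples. Of 16 chemokine and homing receptors, 6 were higher and 3 lower, and the higher count was 3 without WT Treg sample 2 and 2 without WT Treg sample 3 or WT Th0 sample 1. That count also shrank without the filter on low values and with median centering. Ccr6 was 4.86, 6.32 and 7.51 in WT Treg samples and 4.16, 4.97 and 4.16 in WT Th0 samples, so its WT Treg samples differed more from each other than the WT Th0 samples did, and the groups overlapped (log2 change 1.80, and 1.16 without WT Treg sample 3). Ccr2, a receptor for inflammatory chemokines, was 4.22, 3.69 and 4.11 in WT Treg samples, against 7.16, 7.55 and 8.34 in WT Th0 samples (log2 change -3.68 ± 0.39). Gpr183, the oxysterol receptor EBI2, fell by 2.72 on the log2 scale.

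Interferon-stimulated genes fell as a group: 23 of 27 tested (32 written) were lower in WT Treg samples and none higher, with a median log2 change of -1.95 against -0.0015 over all genes. Usp18, which removes the ubiquitin-like modifier ISG15 and restrains interferon receptor signalling, was 5.0, 5.36 and 5.47 in WT Treg samples, against 10.86, 10.72 and 10.89 in WT Th0 samples (46.7-fold lower, adjusted p = 1.1e-15). The RNA-sensing synthetase gene Oas2 was 5.38, 4.81 and 5.08 in WT Treg samples and 9.92, 9.86 and 10.01 in WT Th0 samples (28.5-fold lower, adjusted p = 2.1e-09). Ifit1, which binds viral RNA lacking cap methylation, was 5.25, 5.07 and 4.92 in WT Treg samples and 9.54, 9.52 and 9.85 in WT Th0 samples (23.6-fold lower, adjusted p = 3.3e-08). All 3 genes were near or below the table median in WT Treg samples and separated the groups by more than 4 log2 units. Oas3 was 6.15, 5.62 and 5.69 in WT Treg samples, against 10.39, 10.21 and 10.24 in WT Th0 samples (22-fold lower). Oasl2 (-4.75 ± 0.49, adjusted p = 1.2e-08) and Iigp1, an immunity-related GTPase (-4.75 ± 0.68, adjusted p = 2.3e-06), fell alike. Naive WT cells had means of 10.09 for Usp18, 9.61 for Oas2 and 9.23 for Ifit1.

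The promoters of Ifit1 and Oas3 are printed because both fell strongly and hold the core of the interferon response element, GAAANNGAA, searched on both strands over the 250 bases before to 50 after each gene's start. This motif was chosen after the values were seen. It occurred in 2812 of 32851 promoters in the RefSeq table (8.56%), in 14 of the 21 interferon-stimulated genes with a promoter there, and in 11 of the 18 that were also called lower. Of the 15 lowest genes, 3 of 8 with a promoter held it (Ifit1, Oas3 and Ifit1bl1). So did 2 of 9 of the 15 highest (Apol9b and Rasgrp3). Capitals mark the matches, 3 in Ifit1 and 2 overlapping ones in Oas3 (GRCm38.p6, chr19:34640639-34640938 on the plus strand and chr5:120777610-120777909 on the minus strand).
Ifit1 promoter: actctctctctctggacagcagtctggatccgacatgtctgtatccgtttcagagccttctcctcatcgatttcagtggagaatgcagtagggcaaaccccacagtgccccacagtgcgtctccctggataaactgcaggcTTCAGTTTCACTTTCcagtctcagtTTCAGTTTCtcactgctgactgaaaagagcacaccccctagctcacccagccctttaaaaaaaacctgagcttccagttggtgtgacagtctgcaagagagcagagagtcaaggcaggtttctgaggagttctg
Oas3 promoter: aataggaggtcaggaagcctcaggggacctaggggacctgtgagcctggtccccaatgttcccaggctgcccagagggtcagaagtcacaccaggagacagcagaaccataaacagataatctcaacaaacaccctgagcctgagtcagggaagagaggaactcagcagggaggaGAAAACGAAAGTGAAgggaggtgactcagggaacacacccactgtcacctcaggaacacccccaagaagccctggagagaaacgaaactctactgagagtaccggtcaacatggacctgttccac
The matches in Ifit1 begin between 109 and 84 bases before the start, and those in Oas3 at 75 and 69 bases before it. The palindromic SMAD site GTCTAGAC was in 0.213% of all promoters and in 0 of 13 TGF-β target promoters with a sequence. The forkhead core GTAAACA was in 3.65% of all promoters and in 1 of 18 Treg identity promoters (Swap70). The sterol response core TCACNCCAC was in 1.24% of all promoters and in 1 of 18 sterol and fatty acid synthesis promoters (Hmgcs1). A match is a description of the sequence, and no match says only that these letters are absent from the window.

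Of 21 genes of Th1 identity tested, 2 were higher and 10 lower, with a median change of -0.31. Il12rb2, the inducible chain of the IL-12 receptor, was 4.39, 4.13 and 4.75 in WT Treg samples, against 8.80, 9.06 and 8.62 in WT Th0 samples (21.2-fold lower, adjusted p = 8.9e-12). Its partner chain Il12rb1 was 6.36, 5.78 and 5.93 in WT Treg samples and 8.26, 8.64 and 8.14 in WT Th0 samples (-2.33 ± 0.24, adjusted p = 7.4e-09). The surface antigen gene Ly6c2 was 6.49, 5.95 and 5.99 in WT Treg samples and 8.92, 9.77 and 9.39 in WT Th0 samples (adjusted p = 2.9e-07). None of these groups overlapped, which for Il12rb2 the ranking required. Tbx21, the Th1 master regulator T-bet, was 4.99, 5.66 and 5.55 in WT Treg samples, against 6.57, 7.27 and 6.21 in WT Th0 samples (-1.29 ± 0.24, adjusted p = 7.4e-05), both far below the mean of 10.79 in WT Th1 cells. Xcl1, a chemokine of activated T cells, was an exception (2.82 ± 0.76, adjusted p = 0.0036). It was 6.31, 9.35 and 9.13 in WT Treg samples and 4.73, 6.86 and 4.74 in WT Th0 samples, which overlapped. The signature cytokine Ifng was not called (adjusted p = 0.8).

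The cytotoxic list split, with 4 of 15 tested genes (20 written) higher and 5 lower. Gzmb, the protease granzyme B, showed the largest fall in the ranking given above, which required groups without overlap. It was 3.86, 3.58 and 3.65 in WT Treg samples, against 9.99, 10.62 and 10.59 in WT Th0 samples (104-fold lower, log2 -6.71 ± 0.70, adjusted p = 1.3e-08). Gzmc was 4.63, 4.22 and 4.22 in WT Treg samples and 8.54, 8.03 and 8.76 in WT Th0 samples (17-fold lower, adjusted p = 2.4e-10). Prf1, the pore-forming perforin that delivers granzymes, ran the other way, with 8.01, 7.37 and 7.46 in WT Treg samples, against 6.0, 6.12 and 6.18 in WT Th0 samples (1.51 ± 0.15, adjusted p = 7.3e-09). The death ligand Tnfsf10 (TRAIL) rose by 1.14 on the log2 scale. Lilrb4a, an inhibitory receptor that belongs to none of the lists, was 5.89, 5.2 and 5.40 in WT Treg samples and 9.71, 10.44 and 10.41 in WT Th0 samples (25.7-fold lower, adjusted p = 5.4e-16). The CD8 marker Cd8b1 was lower in WT Treg samples as well, by the values given above, and its part in the cytotoxic genes was not tested.

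Proliferation genes were lower without exception: all 30 tested members (32 written) fell, with a median log2 change of -2.21. Mki67, the proliferation antigen Ki-67, was 10.36, 9.65 and 9.90 in WT Treg samples, against 11.66, 11.66 and 11.77 in WT Th0 samples (3.3-fold lower, adjusted p = 0.0014). Aurkb, a mitotic kinase, was 8.42, 7.75 and 7.98 in WT Treg samples and 10.79, 10.85 and 10.84 in WT Th0 samples (adjusted p = 4.4e-06). Uhrf1, which brings the maintenance methyltransferase Dnmt1 to replicated DNA, was 7.51, 6.86 and 6.84 in WT Treg samples, against 9.78, 9.88 and 9.88 in WT Th0 samples (-2.78 ± 0.42, adjusted p = 5e-06). WT Treg samples nevertheless stayed well above naive WT cells, whose Mki67 mean was 5.80, and 22 of the 30 genes were higher and 2 lower in WT Treg than in naive WT samples.

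Metabolic genes of growing cells were lower too. In sterol and fatty acid synthesis, 22 of 23 tested genes (28 written) fell and none rose, with a median of -1.31. Hmgcs1, an early enzyme of cholesterol synthesis, was 8.08, 7.78 and 8.01 in WT Treg samples and 10.28, 10.08 and 10.27 in WT Th0 samples (4.76-fold lower, adjusted p = 4.3e-09). The fatty acid desaturase Fads2 was 6.46, 6.53 and 7.51 in WT Treg samples, against 10.69, 10.53 and 10.78 in WT Th0 samples (14.3-fold lower, adjusted p = 2.9e-06). The groups did not overlap for either, and the other 3 of the 5 largest changes, Fdps (-2.10), Cyp51 (-1.97) and Sqle (-1.84), are cholesterol enzymes as well. In glycolysis, 14 of 18 tested genes (21 written) fell and none rose, with a median of -0.89. Hk2, which phosphorylates glucose on entry, was 5.87, 6.0 and 5.89 in WT Treg samples and 7.83, 7.55 and 7.99 in WT Th0 samples (adjusted p = 5.8e-09). Tpi1, triosephosphate isomerase, was 9.77, 9.51 and 9.83 in WT Treg samples and 11.49, 11.45 and 11.67 in WT Th0 samples (adjusted p = 4.3e-09). The lactate transporter Slc16a1 (-1.81), Pgk1 (-1.60) and Aldoc (-1.48) fell likewise.

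Of 15 amino acid transport and Myc-linked genes, 11 fell and none rose, among them the arginine transporter Slc7a1 (-1.51), the neutral amino acid transporter Slc1a4 (-1.43) and the leucine transporter Slc7a5 (-1.20), while Myc itself was not called (-0.08). Oxidative phosphorylation genes had 1 higher and 8 lower of 19, with a median of -0.24. That count was 3 lower without WT Treg sample 2 or WT Treg sample 3, 5 without WT Th0 sample 1 or WT Th0 sample 2, 5 with only the compared groups fitted and 14 with array weights.

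The naive and quiescence list moved upward, with 14 of 22 tested genes (24 written) higher and 2 lower and a median of 0.54. Il7r, the receptor for the survival cytokine IL-7, was 10.65, 11.67 and 11.71 in WT Treg samples, against 9.48, 10.43 and 10.12 in WT Th0 samples (1.34 ± 0.26, adjusted p = 0.00012). Klf2, a factor that maintains T cell quiescence, was 9.66, 10.07 and 9.84 in WT Treg samples and 8.84, 8.77 and 8.87 in WT Th0 samples (1.03 ± 0.17, adjusted p = 1.6e-05). The groups did not overlap for either. The antiproliferative gene Btg1 (1.03) and Tsc22d3 (GILZ; 1.18) rose too. Dapl1 did the reverse, at 7.53, 7.94 and 8.12 in WT Treg samples, against 11.51, 11.50 and 11.58 in WT Th0 samples (-3.66 ± 0.21, adjusted p = 8.6e-14).

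Genes of the other helper lineages changed unevenly. Of 17 Th17 identity genes, 7 were higher and 3 lower, with a median of 0.17. Maf (above) led them, followed by Ahr, the aryl hydrocarbon receptor, which was 8.74, 8.69 and 8.63 in WT Treg samples, against 5.57, 7.08 and 6.33 in WT Th0 samples. The lineage cytokines Il17a (0.17, adjusted p = 0.5) and Il17f (0.08, adjusted p = 0.81) were not called, and had means of 8.64 and 11.93 in WT Th17 cells. Batf, an AP-1 factor needed for Th17 cells, fell, with 7.39, 7.19 and 7.57 in WT Treg samples and 8.64, 8.89 and 8.89 in WT Th0 samples. Of 15 Th2 identity genes 1 was higher and 1, Il4, was lower (-0.92 ± 0.19, adjusted p = 0.00028), while Gata3 (adjusted p = 0.32) and Il10 (adjusted p = 0.99) were not called. Over the alternatives tried, the count of higher Th2 genes was 0 to 3 and that of lower ones 1 to 4, and without WT Treg sample 3, WT Th0 sample 1 or WT Th0 sample 3 none was higher.

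Of 25 helper lineage transcription factors, 7 were higher and 6 lower. Ikzf3 (Aiolos) was 10.06, 10.21 and 10.39 in WT Treg samples, against 8.0, 8.16 and 7.78 in WT Th0 samples, and Bcl6, the regulator of follicular helper cells, rose by 1.16. Among 17 pro-inflammatory cytokine genes 2 were higher and 5 lower, including the falls of Lif (-2.09) and Tnfsf8 (-1.56). Il3 was 9.02, 7.02 and 7.79 in WT Treg samples and 4.49, 7.64 and 4.97 in WT Th0 samples, which overlapped (adjusted p = 0.02). The higher count was 1 without WT Treg sample 1, WT Th0 sample 1 or WT Th0 sample 3, and with only the compared groups fitted. Il2 was not called (adjusted p = 0.42).

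The remaining signalling and surface groups had mixed or few calls. IL-2 and STAT5 signalling had 4 higher and 3 lower of 16, with Stat5a (0.77), Stat5b (0.67) and Socs3 (0.77, and 0.40 as the mean of its rows) among the risers. ERK feedback genes had 6 lower and none higher of 13, of which the phosphatase gene Dusp6 was 8.99, 7.59 and 7.85 in WT Treg samples, against 10.41, 10.51 and 10.54 in WT Th0 samples (-2.34 ± 0.33, adjusted p = 2.1e-06; -1.23 as the mean of its rows). Immediate early genes had 2 higher and 4 lower of 19, the SOCS family 1 and 1 of 8, apoptosis regulators 2 and 4 of 14, and MHC class II genes 0 and 1 of 5. Over the alternatives tried, immediate early genes had 1 to 4 higher and 3 to 5 lower, and the SOCS family 1 to 2 higher and 0 to 1 lower. Apoptosis regulators had 1 to 2 higher and 3 to 7 lower, and MHC class II genes 0 higher and 1 to 3 lower. Co-inhibitory receptors had 5 higher and 2 lower of 15, and the higher count was 3 without WT Treg sample 2, WT Treg sample 3 or WT Th0 sample 1, and Btla fell by 1.29. Costimulatory receptors had 3 higher and 7 lower of 16, and retinoic acid response genes 4 and 1 of 10. Of 16 genes of TRIM28 and its partners 2 were higher and 6 lower, and Trim28 itself was 9.53, 9.21 and 9.33 in WT Treg samples and 9.84, 9.67 and 9.77 in WT Th0 samples (-0.40 ± 0.16, adjusted p = 0.044), a call lost on leaving out any 1 of the 6 samples other than WT Treg sample 1, without the filter on low values and with repeated quantile normalization.

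**Figure D3:**
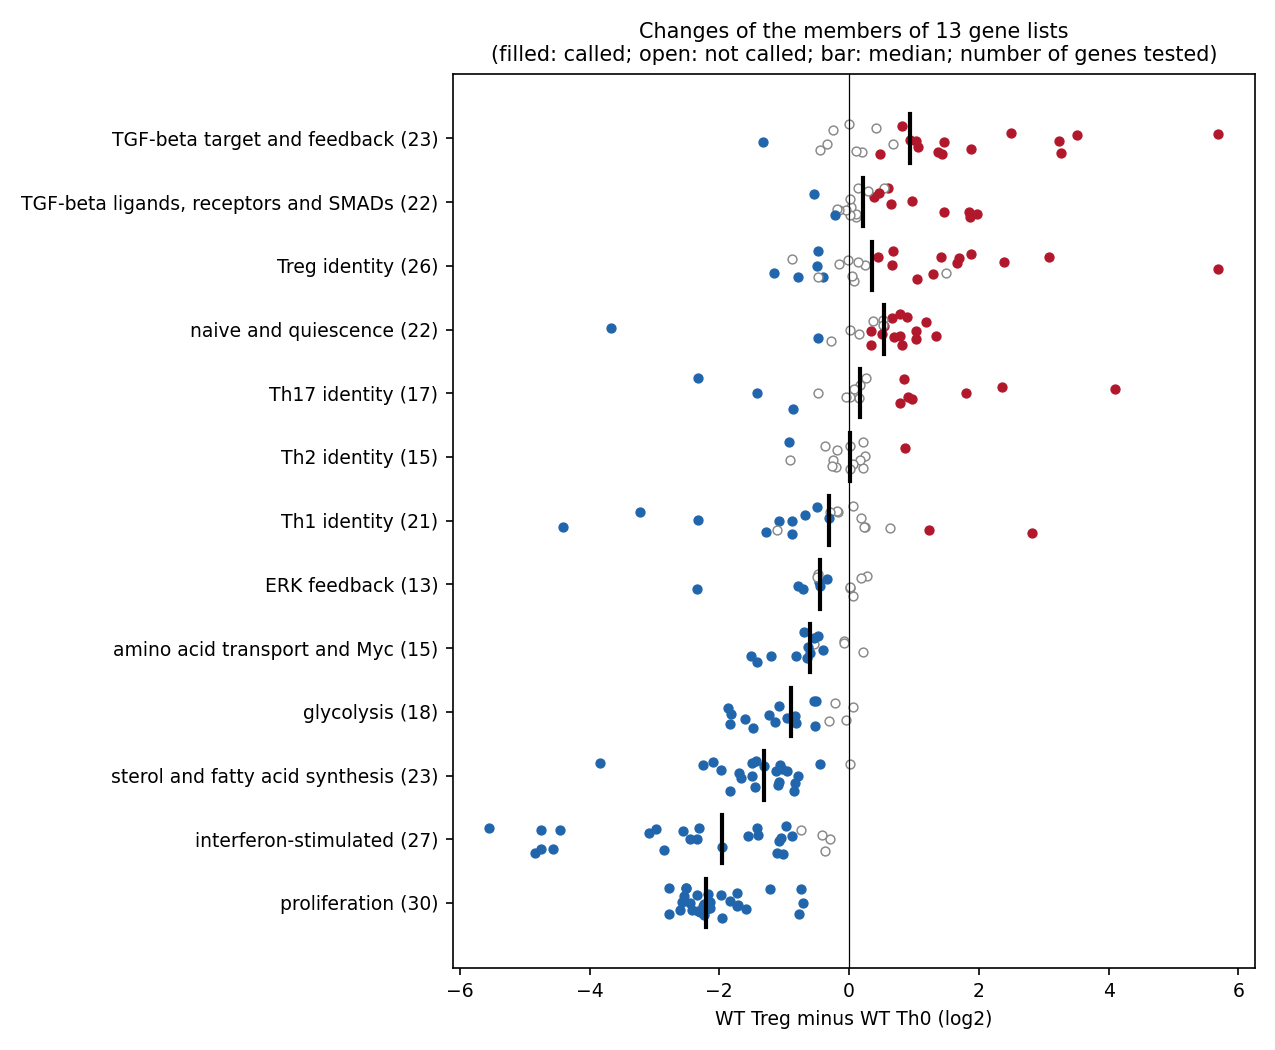
Log2 difference of WT Treg minus WT Th0 samples (x axis) for each tested member (points, filled where called at an adjusted p of 0.05) of 13 gene lists (rows), with a bar at each list's median. The medians are 0.94 for TGF-β targets and feedback, 0.35 for Treg identity, -1.31 for sterol and fatty acid synthesis, -1.95 for interferon-stimulated genes and -2.21 for proliferation.

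Rows at miRNA loci were examined after their values were seen. Of 181 tested, 34 were higher and 6 lower, where 19.2% of all genes tested were higher and 22.4% lower. The share of higher loci was thus near that of all genes, and the share of lower loci was below it. In total RNA such rows may read the locus' longer transcript, not only the mature miRNA. Mir181b-2 was 8.90, 8.21 and 8.56 in WT Treg samples, against 3.78, 3.77 and 3.70 in WT Th0 samples (log2 change 4.81 ± 0.17, adjusted p = 1.4e-18). Its neighbour Mir181a-2 was 6.26, 6.52 and 6.77 in WT Treg samples and 3.49, 3.86 and 3.58 in WT Th0 samples (2.87 ± 0.19, adjusted p = 1.4e-12). Mir181b-1, on another chromosome, was 9.0, 9.29 and 9.16 in WT Treg samples and 5.67, 5.85 and 5.62 in WT Th0 samples (3.44 ± 0.31, adjusted p = 8.2e-10). These 3 loci of the shared seed printed above showed no overlap between the groups. Mir181c also rose (1.86 ± 0.18, adjusted p = 2.4e-09), with 9.05, 8.59 and 8.47 in WT Treg samples, against 7.40, 6.47 and 6.65 in WT Th0 samples. Mir181d, its neighbour, rose by 0.34 ± 0.11 (adjusted p = 0.011), a call lost with repeated quantile normalization, with cyclic loess or without WT Th0 sample 1. Mir23b was 7.55, 7.17 and 7.04 in WT Treg samples and 6.08, 5.48 and 5.34 in WT Th0 samples, and Mir301 was among the 6 that fell, with 4.11, 4.49 and 4.25 in WT Treg samples, against 5.82, 5.43 and 5.35 in WT Th0 samples.

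The same WT Treg samples were also set against the other wild-type states. These comparisons share the WT Treg samples with each other and with the comparison to WT Th0, so only their own values are given side by side. Genes called higher and lower numbered 3435 (26.3%) and 2297 (17.6%) against naive, 3331 (25.5%) and 3348 (25.6%) against Th1, 3524 (26.9%) and 3202 (24.5%) against Th2, and 3343 (25.6%) and 3734 (28.5%) against Th17 samples. Foxp3 was higher in WT Treg samples in each, by 5.10 ± 0.35 against Th17 (adjusted p = 1e-12), 3.90 against Th1, 6.21 against Th2 and 4.87 against naive samples. Itgae means were 6.09 in Th17, 4.95 in Th1, 8.36 in Th2 and 5.09 in naive samples, all below every WT Treg sample. Fermt1 averaged 4.84 ± 1.27 (SD, n = 3) in Th17 samples and 3.81 to 3.96 in Th1, Th2 and naive samples. Abcc8 averaged 4.48 to 4.78 and Glp1r 5.11 to 5.30 in those 4 states.

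Other genes were shared with further states. Maf averaged 9.32 in Th17 samples, 0.39 below WT Treg samples (adjusted p = 0.04), and 8.56 in Th2 samples, but 6.15 in Th1 and 6.55 in naive samples. Cd101 averaged 9.69 in Th17 samples. Furin was higher in Th1 (11.49) and Th17 (10.92) samples than in any WT Treg sample, the highest of which was 10.51. Gzmb averaged 6.12 in Th17, 11.38 in Th1, 10.66 in Th2 and 3.41 in naive samples, and Lilrb4a 11.49, 11.60, 11.85 and 3.82 in the same order. In Gzmb, WT Treg samples (3.58 to 3.86) were closer to naive samples than to those of any stimulated state.

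The lists differed by the state they were set against. Treg identity had 20 higher and 2 lower members against naive samples (median 2.59), 10 and 6 against Th1, 10 and 10 against Th2, and 9 and 10 against Th17. Interferon-stimulated genes had 0 higher and 27 lower against Th1, but 1 and 10 against Th17 (median -0.26), and Usp18 averaged 6.72 in Th17, 11.28 in Th1 and 8.35 in Th2 samples. Proliferation genes had 0 higher and 28 lower against Th17, and glycolysis genes 0 and 17 (median -1.97). Against Th17 samples 3 of 17 Th17 identity genes were higher and 13 lower, against Th2 samples 0 and 14 of 15 Th2 identity genes, and against Th1 samples 1 and 16 of 21 Th1 identity genes. In rankings by the same rule as for WT Th0, the 5 genes most above Th17 samples were Glp1r, Foxp3, Itgae, Abcc8 and Ipcef1. The 5 most below were Il17f, Il12rb2, Il9, Timp1 and Cysltr1. Against naive samples the extremes by that rule were Socs2, Itgae, Nav1, Fermt1 and Cpd upward and Slc16a5, Fos, Usp18, Sik1 and Gpr183 downward.

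**Figure D4:**
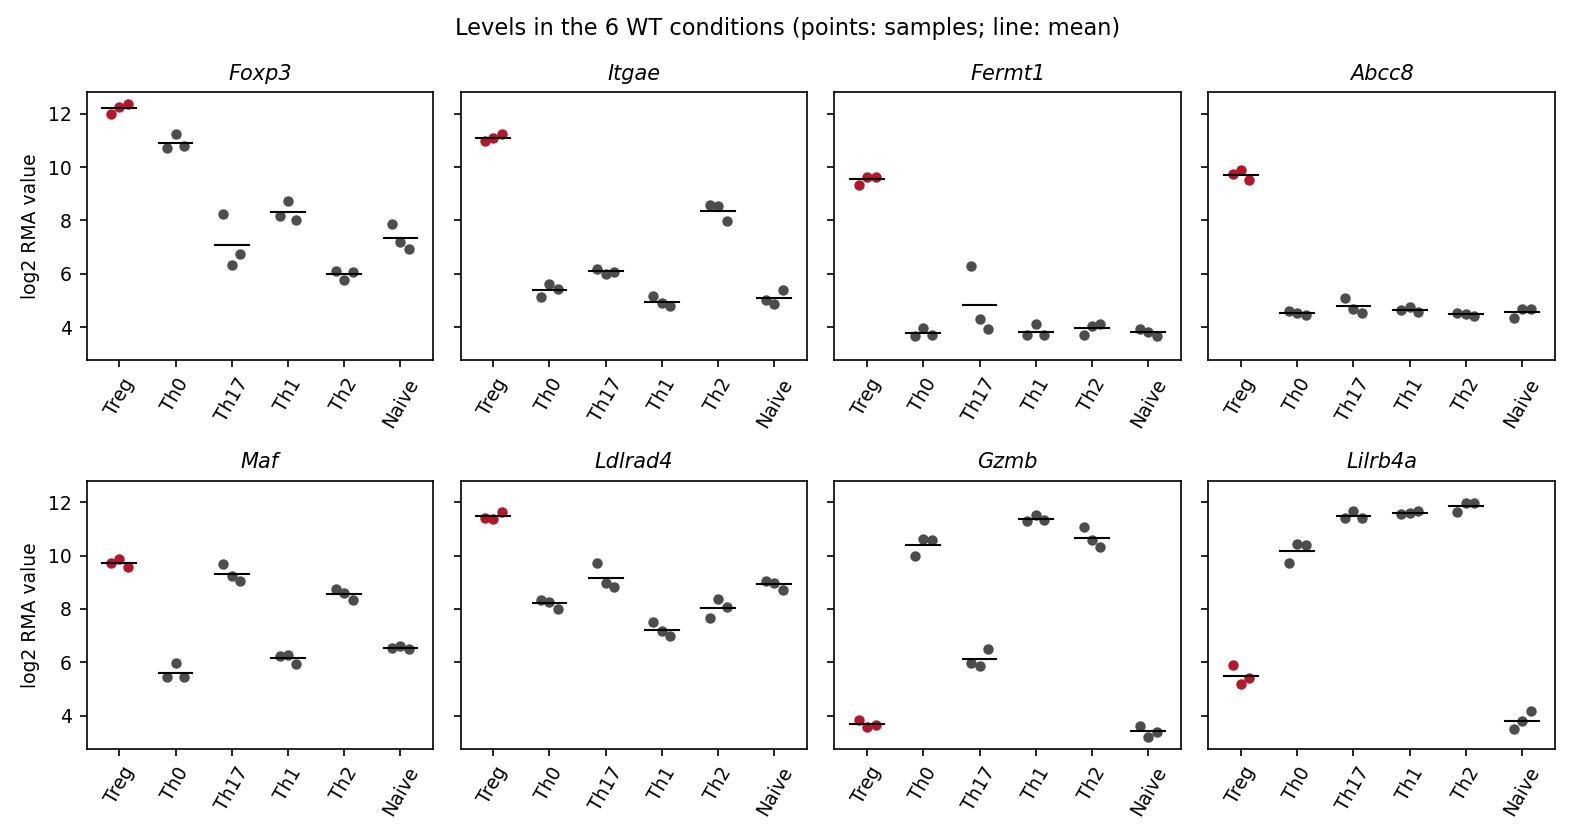
Log2 level (y axis) of 8 genes in the 6 wild-type states (x axis, 3 samples each as points, with a line at the mean). Foxp3, Itgae, Fermt1, Abcc8 and Ldlrad4 are highest in the Treg state, Maf is nearly as high in Th17 (mean 9.32), and Gzmb is at 3.58 to 3.86 in Treg samples beside a mean of 3.41 in naive samples.

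The same contrast in TRIM28-knockout cells, 3 KO Treg against 3 KO Th0 samples, shares no sample with the wild-type one. TRIM28 silences genes and retroelements to which KRAB zinc-finger proteins recruit it. Trim28 was 6.22, 6.4 and 6.21 in KO Treg samples and 6.06, 6.04 and 5.68 in KO Th0 samples, all more than 2 log2 units below every wild-type sample of these states, as a knockout label calls for. In some genes, picked after the values were seen, KO Th0 sample 1 stood apart from the rest of its group. Its Gzmb was 5.84 against 9.14 and 9.62, its Mki67 8.61 against 10.86 and 10.64, and its Oasl2 4.74 against 8.04 and 6.75. Over all genes tested, its mean correlation with its group was 0.980, against 0.984 and 0.983 for KO Th0 samples 2 and 3. The counts in KO cells are therefore given with and without KO Th0 sample 1, and so are values of single genes that it moved by over 1.5 times. Gene lists in KO cells were not counted again without any other KO sample.

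In KO cells 1002 genes (7.66%) were called higher and 1566 (12%) lower in Treg than in Th0 samples (849 and 1432 without KO Th0 sample 1). Of the 2518 genes higher in wild-type cells, 1490 (59.2%) had the same sign in KO cells, where 45.2% of all genes did, and 601 (23.9% of the WT calls and 60% of the KO calls) were called the same way. Among the 396 that rose at least 2-fold, 343 (86.6%) had the same sign and 262 (66.2%) were called, with median log2 changes of 0.79 in KO and 1.43 in WT cells. Of the 2924 lower genes, 2011 (68.8%, against 54.8% of all genes) had the same sign and 701 (24% of the WT calls and 44.8% of the KO calls) were called. Among the 789 that fell at least 2-fold, 657 (83.3%) had the same sign and 266 (33.7%) were called, with median changes of -0.41 in KO and -1.56 in WT cells. These genes were chosen for a large change in WT cells. A smaller median in KO cells can follow from that choice alone, so it is not read as a difference between genotypes. Without KO Th0 sample 1 the counts called the same way were 570 of the higher genes, 256 of those at least 2-fold higher, 805 of the lower and 379 of those at least 2-fold lower.

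Of the 23 TGF-β targets and feedback genes, 13 were higher and 1 was lower in KO cells, with or without KO Th0 sample 1. Itgae rose by 4.82 in KO cells (adjusted p = 6.2e-17), 0.87 less than in WT cells (adjusted p of the difference 0.021). Glp1r rose by 5.81 in KO cells, 1.38 more. Fermt1 was 4.30, 4.25 and 4.76 in KO Treg samples and 4.04, 3.87 and 4.12 in KO Th0 samples (0.43, adjusted p = 0.38), against a rise of 5.74 in WT cells. This difference of -5.31 (adjusted p = 3.6e-09) was the most negative in a ranking with the same symbols left out as above. Abcc8 rose by 2.42 in KO cells, 2.75 less than in WT cells (adjusted p = 2.9e-11). Foxp3 was 12.11, 11.93 and 12.09 in KO Treg samples and 11.56, 11.13 and 11.72 in KO Th0 samples, which did not overlap, but the difference of 0.57 did not pass the test (adjusted p = 0.29, with or without the replicate number as a block). The difference between genotypes did not pass it either (-0.72, adjusted p = 0.31). Mir181b-2 rose by 4.99 in KO cells.

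The difference between genotypes was called higher for 1711 genes (13.1%) and lower for 1818 (13.9%) (1274 and 1465 without KO Th0 sample 1), that is, with a more positive or more negative Treg minus Th0 change in KO cells. All 22 sterol and fatty acid genes called in it were more positive in KO cells, of 23 tested (21 without KO Th0 sample 1), and in KO cells themselves 3 rose and none fell (2 and none without that sample). The change in KO cells was -0.01 for Hmgcs1 (adjusted p = 0.99) and -0.12 for Fads2 (adjusted p = 0.92), and -0.15 and -0.79 without that sample, none of them past the test. Glycolysis had 13 more positive and 2 more negative of 18 (12 and 2 without that sample), and interferon-stimulated genes 17 and 0 of 27 (16 and 0). Usp18 was 9.26, 8.96 and 8.07 in KO Treg samples and 9.85, 11.06 and 10.25 in KO Th0 samples, a change of -1.62, and the difference from WT cells was 3.93 (adjusted p = 5.6e-08). Naive and quiescence genes had 1 more positive and 13 more negative of 22 (1 and 12). For proliferation the count rested on KO Th0 sample 1: 24 and 0 of 30 with it but 12 and 0 without it, and 1 member was lower in KO cells with it, against 13 without it.

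**Figure D5:**
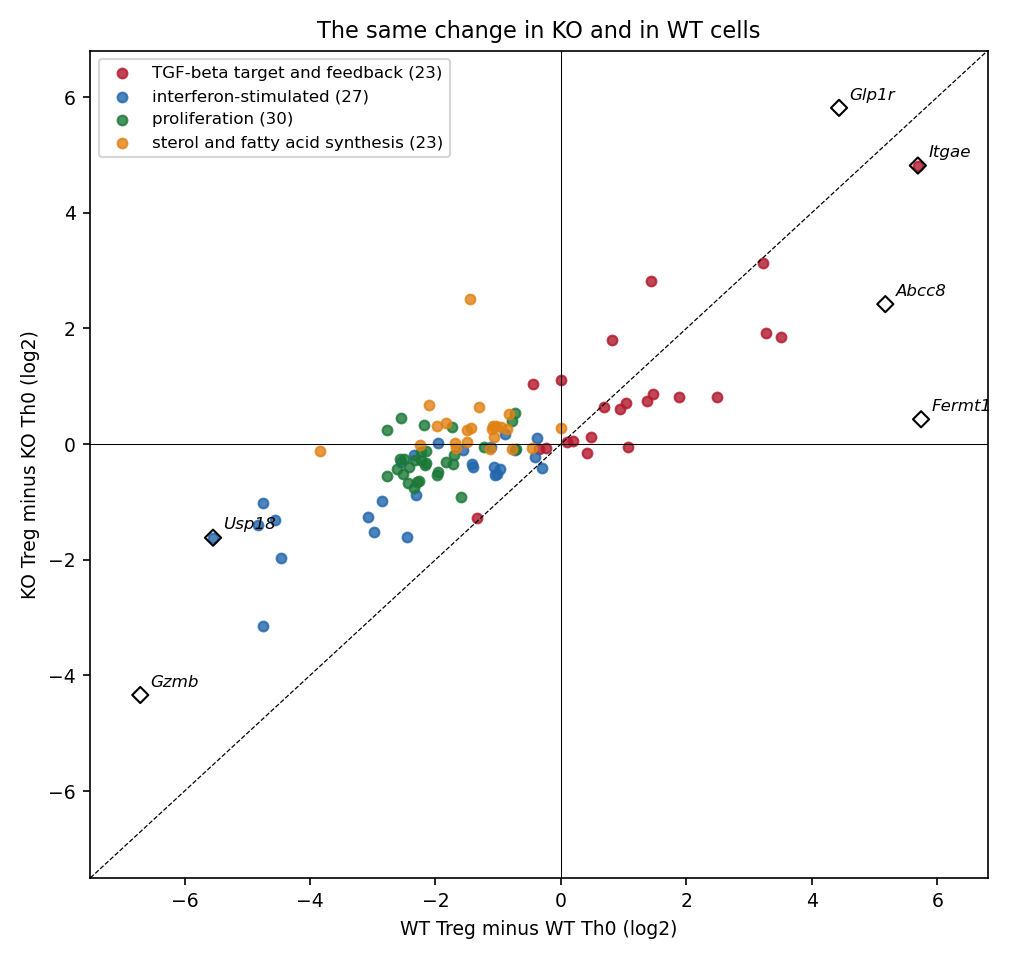
Log2 change of Treg minus Th0 samples in KO cells (y axis) against that in WT cells (x axis) for members of 4 gene lists and 6 named genes (diamonds), with the line of equal change. Fermt1 lies near 0 in KO cells and at 5.74 in WT cells, while Itgae and Glp1r lie high in both.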

How the data were processed

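Expression was measured in 36 samples (12 groups of 3) on Affymetrix arrays. The table holds the authors' deposited log2 values, made with RMA, oligo and R 3.1.0 per the submitters' processing notes; the version of oligo is not given in the sources used here. No column was left out. Values were used as they stand. Probe sets were named from the platform annotation, 23521 rows with 1 symbol, 1814 with several and 16010 with none, and only the first kind was used, a gene with several rows (1082 of 22180) taking the row with the highest mean. Genes above the table median of 5.26 in at least 3 samples (13082) entered limma 3.58.1, run in R 4.3.3, in 1 model of 12 group means over all 36 samples (24 residual degrees of freedom), with Benjamini-Hochberg adjustment within each comparison and a threshold of 0.05. The fit was tested on simulated data. Same-numbered KO Treg and KO Th0 samples deviated together (correlations 0.23, 0.13 and 0.30), as did WT Treg samples with WT Th1, WT Th2 and WT Th17 samples. The labels do not say if the replicate numbers pair samples. The main fit therefore carries no block, and a replicate block was tried as an alternative.

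The comparisons, members and gene lists were chosen with earlier results of these data known. Genes named are the 15 highest and 15 lowest called genes whose groups did not overlap, up to 5 called members of each list by size of change, the 5 highest and 5 lowest of the other comparisons, and a set list of lineage genes, with small RNA loci, uncharacterized symbols and sex-linked genes left out of the rankings. Alternatives covered the filter, the normalization, the row chosen for a gene, the prior, array weights, the groups fitted, a replicate block and leaving out each sample. Promoters and miRNAs came from RefSeq tables of GRCm38.p6. Rows that carry several symbols or none were not analysed here as genes.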

Additional observations from a re-analysis of the deposited data

Results flagged for a closer look

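For 29 of 59 named genes the Treg minus Th0 change differed between TRIM28-knockout and wild-type cells by an interaction term in limma at an adjusted p of 0.05, where 13.1% of all genes tested were called higher and 13.9% lower. Of the 59, 30 were chosen for an extreme change in WT cells, a term of this difference, so the 2 shares cannot be set against each other. Values are the log2 change in KO cells minus that in WT cells. Among interferon-stimulated genes the differences were 3.93 for Usp18, 3.74 for Oasl2, 3.43 for Oas2, 3.24 for Ifit1, 3.02 for Rtp4 and 2.49 for Oas3. Gzmc (2.75), Gpr83 (2.13), Lilrb4a (1.5), Il12rb2 (1.43), Ms4a4c (1.42), Pmepa1 (1.39), Glp1r (1.38), Trim28 (0.75) and Tgfb1 (0.35) were also positive.

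The differences were negative for Fermt1 (-5.31), Abcc8 (-2.75), Nrp1 (-1.88), Skil (-1.69), Maf (-1.58), Ncmap (-1.41), Ldlrad4 (-1.35), Smad7 (-1.06), Itgae (-0.87), Tgfbr2 (-0.78), Gata3 (-0.67), Smad3 (-0.62), Ccr7 (-0.45) and Cd101 (-0.41). Trim28 is the gene removed, and it was low in both KO groups. Without KO Th0 sample 1, 26 of the 29 were still called, and Il12rb2, Ccr7 and Gata3 were not. Within KO cells the Treg minus Th0 value of Oasl2 was -1.90 without that sample (adjusted p = 0.0014) and -1.01 with it (adjusted p = 0.17), and that of Rtp4 was -1.97 and -1.29, both called.

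Probe sets without exactly 1 symbol, outside the gene comparison, also held differences: 2364 of 10687 tested (22.1%) were called between WT Treg and WT Th0 samples, 1566 higher and 798 lower in WT Treg samples.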

How the results depend on the processing

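None of the changes called for the named genes reversed sign in any fit by gene, and 159 of the 203 genes named for WT Treg against WT Th0 kept their side of the threshold in every fit that tested them. Using all probe sets, named or not, tested 24547 rows in place of 13082 genes. It called 3978 higher (2518 genes) and 3659 lower (2924 genes) between WT Treg and WT Th0. Calls in both directions together were 9070, 10334, 10201 and 10776 (5732, 6679, 6726 and 7077 genes) against naive, Th1, Th2 and Th17. Calling only changes of at least 2-fold left 1185 of the 5442. Fitting only the groups compared called 1526 instead of 2568 genes between KO Treg and KO Th0. Array weights called 7412 instead of 5442 genes between WT Treg and WT Th0, and 5326 instead of 3529 for the difference between genotypes. The causes were not tested. Leaving out 1 sample of the compared groups in turn gave 4544 to 5390 calls between WT Treg and WT Th0, 1937 to 2472 in KO cells and 2739 to 4048 for the difference. With the replicate block the counts were 5686, 2775 and 3827, and with it as a random block 5647 for WT Treg against WT Th0. WT Treg and WT Th0 samples of the same number deviated together only weakly (correlations 0.17, 0.11 and 0.03), and the labels do not say if they are pairs. Genes called higher made up 46.3% of calls, 37.7% after centering each sample on its median and 52.1% over all probe sets, so that lower calls outnumbered higher ones over genes but not over all probe sets. The median change over all genes moved most, by -0.062, after that centering. Values near the array's lower range limit what can be measured: for genes such as Fermt1, Abcc8 and Gzmb the low group lies below the table median, and a fold change there can be understated.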

Other observations

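Pcp4, a calmodulin regulator of neurons, was the gene whose change differed most upward between the genotypes in the ranking with the symbols named above left out. It was 10.78, 10.88 and 10.27 in KO Treg samples, against 5.30, 5.28 and 5.75 in KO Th0 samples (log2 change 5.2), while in wild-type cells it changed by 0.67, a difference of 4.53 (4.46 without KO Th0 sample 1). Scd1, a stearoyl-CoA desaturase, changed by 2.51 in KO cells (2.27 without that sample), while it was 7.21, 7.20 and 7.57 in WT Treg samples and 9.18, 8.62 and 8.5 in WT Th0 samples. The sialyltransferase gene St8sia6 was 9.51, 10.56 and 10.59 in WT Treg samples, against 7.5, 7.26 and 7.31 in WT Th0 samples, while its change of -0.45 in KO cells did not pass the test (adjusted p = 0.4; -0.24 without that sample). The cholesterol exporter gene Abca1 was 7.37, 8.94 and 8.83 in WT Treg samples and 6.09, 5.97 and 6.26 in WT Th0 samples, while its change of -0.41 in KO cells did not pass the test either (adjusted p = 0.47; -0.26 without that sample). WT Treg sample 1 was the lowest of its group for St8sia6, Abca1, Xcl1 and Ccr6.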
